A study of Oryza sativa Japonica Group with 18 samples.

Results

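PSAG, PSB28, LP02 and RCABP69 are rice genes for proteins of the light reactions of photosynthesis, and their transcript signals were followed in shoot and root of a pho2 knockout, a gi knockout and wild type (WT). Every probe set that the platform annotation assigns to these 4 genes was used, out of 17905 genes that the array's annotation reaches. This gave 5 of the 57381 probe sets on the Affymetrix rice array. PSAG has 2 of them, and the other genes have 1 each. The genes were picked with their signals in the mutants in view, so the mutant values below are a description without a test. The choice is not known to have used WT shoot against WT root, and that comparison was tested.

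The pho2 plants lack PHO2, a ubiquitin-conjugating enzyme that restrains phosphate uptake and its transfer to the shoot. The gi plants lack GIGANTEA (GI), a protein tied to the circadian clock that also times flowering. Both knockouts were in the Nipponbare background, and WT was Nipponbare itself. At harvest every plant was 21 days old: seeds germinated for 2 days, and seedlings then grew for 19 days in hydroponics with enough phosphate and a 12 h photoperiod. No other treatment was given to any group. Each of the 6 groups of genotype and tissue has 3 arrays, and the labels give neither the alleles, nor the plants behind an array, nor the hour of harvest. The series title names phosphate balance and the timing of flowering as the subject.

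The values are deposited MAS5 signals on a linear scale, scaled by array. The trimmed mean was 500.1 on all 18 arrays, with medians of 52.5 to 70.3 units. Between replicates, Pearson's r of log2 signals across probe sets, which are not independent, was 0.9535 to 0.9712 in shoot and 0.9824 to 0.9856 in root. The GI signal was 1.36 to 44.6 on the 6 gi arrays, against 7007 to 11520 on the 6 WT arrays. The transcript of PHO2 was not analysed here. Nothing in the labels says that replicates came from separate plants. A p-value here therefore reflects the spread among 3 arrays a group, which may be technical, and precision is limited by that number.

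Photosystem II takes electrons from water, and photosystem I passes them on to ferredoxin, both in the thylakoid membrane of the chloroplast. Chlorophyll a/b-binding proteins surround the photosystems as antennae and hand them light energy. Leaf cells are rich in chloroplasts, and root cells normally hold few. PSAG is subunit G of photosystem I, a membrane subunit that helps to bind the antenna. PSB28 is a photosystem II assembly factor, known best from cyanobacteria. LP02 carries OEE3 as a synonym in the gene table, the name of an oxygen-evolving enhancer protein, which sits on the lumen side of photosystem II near the water-splitting site. By that synonym alone, LP02 is treated here as a photosystem II protein and not as an antenna protein. RCABP69 is named as a chlorophyll a/b-binding protein of the antenna. Its probe set is of a type (suffix _s_at) whose probes can match several transcripts, and chlorophyll a/b-binding genes form a family of close copies, so its signal may include other family members. The LP02 probe set (suffix _a_at) may also match further transcripts.

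In WT, each of the 5 probe sets was brighter in shoot than in root. PSAG is given first by its brighter probe set, which averaged 11760 ± 810 in WT shoot and 370.5 ± 63.1 in WT root (SD, n = 3 each), a ratio of 31.7 (log2 difference 4.94, SE 0.112, limma adjusted p = 2.46e-16). PSB28 averaged 3704 ± 133 in WT shoot and 59.86 ± 3.14 in WT root, a ratio of 61.9 (5.62, SE 0.202, limma adjusted p = 7.44e-14). LP02 averaged 47470 ± 4400 in WT shoot and 794.9 ± 82.5 in WT root, a ratio of 59.7 (5.87, SE 0.265, limma adjusted p = 1.57e-12). RCABP69 had the widest gap of the 5, with 36980 ± 2630 in WT shoot and 184 ± 28.2 in WT root, a ratio of 201 (7.54, SE 0.38, limma adjusted p = 7.04e-12). A tissue difference is the rule on these arrays, since 71% of all tested probe sets were called between WT shoot and WT root and 31.8% were called higher in shoot. Here and below, log2 differences are on the scale of log2(signal + 16), which understates those of dim probe sets, and called means a Benjamini-Hochberg adjusted p under 0.05 over all 34355 tested probe sets.

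The dimmer PSAG probe set gave a much smaller gap. It averaged 177.2 ± 48.3 in WT shoot and 59.83 ± 12.6 in WT root, a ratio of 2.96 (1.33, SE 0.295, limma adjusted p = 0.000617). When arrays were scaled on the hybridisation controls described below, this difference shrank to 0.02 and was no longer called (limma adjusted p = 0.964). On that scale the median of all tested probe sets was -1.41 in this comparison, against -0.09 as deposited, and the other 4 probe sets stayed called higher in shoot under it. In the mutants too, every probe set had a higher mean in shoot than in root, with different ratios. By the dimmer PSAG probe set the ratio of means was 1.58 in pho2 and 1.42 in gi, against 2.96 in WT, and shoot and root arrays overlapped in both mutants. The ratio of mean shoot signal to mean root signal for LP02 was 22.2 in pho2 and 32.2 in gi, against 59.7 in WT. For RCABP69 it was 86.5 in pho2 and 65.2 in gi, against 201 in WT. For PSB28 it was 65.8 in pho2 and 68.2 in gi, against 61.9 in WT, and for PSAG by its brighter probe set it was 18.1 in pho2 and 37.2 in gi, against 31.7 in WT.

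**Figure D1:**
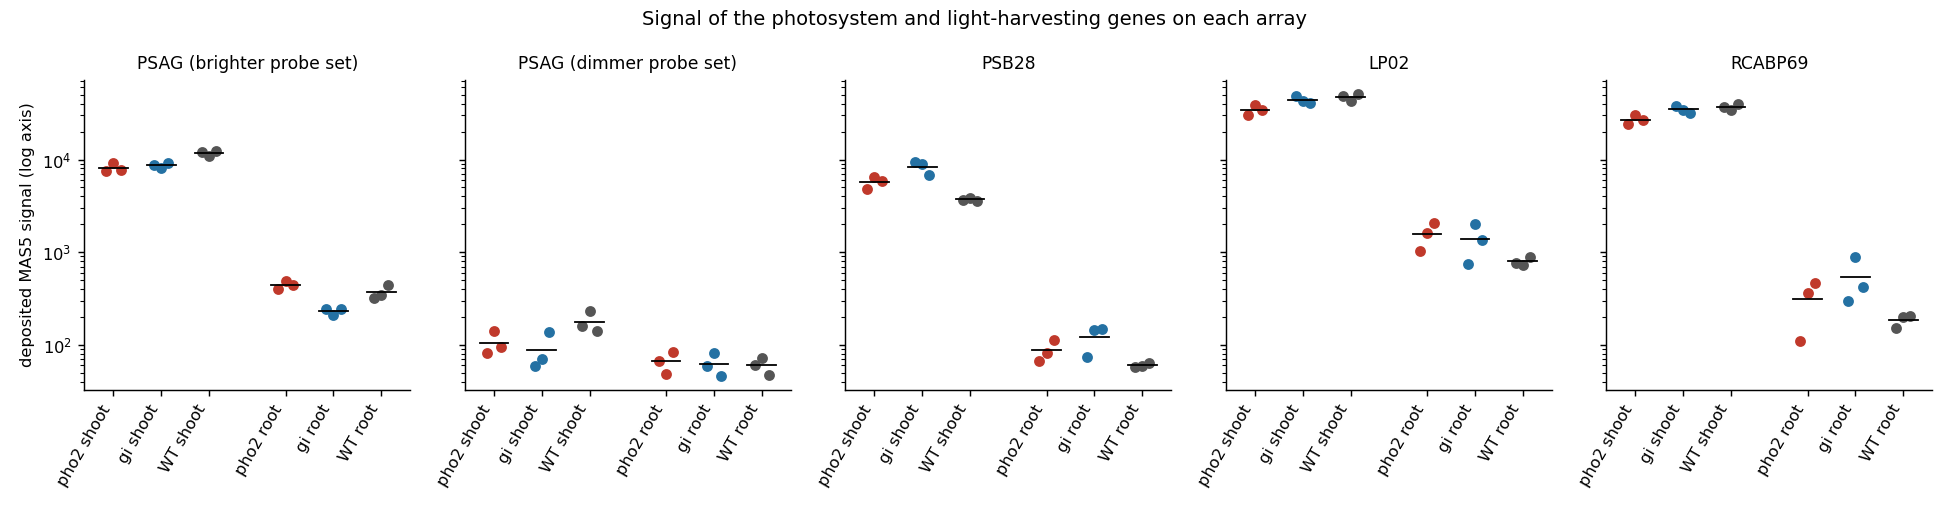
Each point is the deposited MAS5 signal on 1 array (log axis), in shoot on the left and root on the right of each panel, for pho2 (red), gi (blue) and WT (grey), and the line is the mean of 3 arrays. PSB28 lies higher in both mutants than in WT in both tissues, whereas the brighter PSAG probe set lies lower than WT in both mutant shoots and in gi root.

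Tissue identity was read from markers that are not photosynthesis genes. Of 9 shoot markers used, the summed signal was 6404 to 8450 over the 9 shoot arrays and 106 to 617 over the 9 root arrays. LOGL3 and SWEET1B among them were picked as bright WT shoot genes in earlier results of these data. Their part of this gap was therefore fixed in advance, and it is large, at 2320 to 2944 for LOGL3 and 2040 to 2426 for SWEET1B in WT shoot. YAB2, listed as a leaf identity gene, was at 1296 to 1509 in WT shoot and 0.75 to 3.21 in WT root. Of 8 root markers used, it was 2402 to 10640 over the shoot arrays and 29437 to 37025 over the root arrays. Not every marker separated the tissues. The root marker NAS3 was at 4268 to 8130 in WT shoot and 3248 to 3891 in WT root, and SCR1, YAB4, YAB5 and DL overlapped between the shoot and the root arrays.

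Photosystem I was represented by PSAG, and its signal was lower in both mutant shoots than in WT. The brighter probe set read 7508, 9105 and 7693 in pho2 shoot, 8744, 8011 and 9137 in gi shoot, and 12025, 10856 and 12411 in WT shoot. No mutant shoot array reached the lowest WT array. The log2 change was -0.54 (SE 0.091) in pho2 shoot and -0.45 (SE 0.091) in gi shoot, equal to ratios of means of 0.689 and 0.734. In root the mutants went apart. PSAG read 403, 491 and 447 in pho2 root, 243, 211 and 243 in gi root, and 322, 347 and 442 in WT root. All 3 gi arrays lay below WT (-0.63, SE 0.135), while pho2 and WT overlapped (0.27, SE 0.135).

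The dimmer PSAG probe set gave the same directions in shoot and no shift in gi root. It read 82.2, 140 and 93.7 in pho2 shoot, 58.4, 69.5 and 136 in gi shoot, and 159, 232 and 140 in WT shoot. All mutant arrays were below all WT arrays, by a narrow margin (139.63 on the highest pho2 array, against 140.44 on the lowest WT array), with log2 changes of -0.67 in pho2 and -0.94 in gi (SE 0.318 each). In root it ranged over 48.6 to 83.6 in pho2, 46.5 to 81 in gi and 47 to 72.1 in WT, and the groups overlapped. The log2 change in gi root was thus 0.03 (SE 0.242) by this probe set and -0.63 by the brighter one, so the lower PSAG signal of gi root rests on 1 probe set of 2.

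PSB28, the photosystem II assembly factor, was the gene that stood above WT in both mutants and both tissues. It read 4851, 6487 and 5830 in pho2 shoot, 9379, 9013 and 6741 in gi shoot, and 3698, 3840 and 3574 in WT shoot. The lowest mutant shoot array was well above the highest WT array. The ratio of means was 1.54 in pho2 shoot and 2.26 in gi shoot (log2 changes 0.62 and 1.16, SE 0.128 each). In root the signal was dim, at 67.3, 81.9 and 112 in pho2, 74.7, 146 and 148 in gi, and 57, 59.4 and 63.2 in WT. Again no mutant array fell within the WT range, although pho2 replicate 1 was only slightly above it. The log2 change was 0.42 in pho2 root and 0.82 in gi root (SE 0.252 each), and it was 0.25 in pho2 root without replicate 3 of pho2.

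LP02, a lumenal photosystem II protein by its synonym, was above WT in pho2 root and below WT in pho2 shoot. In shoot it read 30098, 39226 and 34318 in pho2, 48518, 42787 and 41208 in gi, and 48602, 42617 and 51189 in WT. All pho2 shoot arrays were under the WT range (-0.46, SE 0.111), and gi and WT overlapped (-0.10, SE 0.111). In root it read 1019, 1593 and 2056 in pho2, 749, 2026 and 1344 in gi, and 772, 726 and 886 in WT. All pho2 root arrays exceeded WT, with a ratio of means of 1.96 (0.90, SE 0.326). In gi root, 1 array lay inside the WT range and the others above it (0.67, SE 0.326), and the value was 0.34 without replicate 2 of gi and 1.04 without replicate 1.

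RCABP69, the antenna protein, gave nearly the log2 changes of LP02 in shoot, and in root it had the largest SE of the 5 probe sets. In shoot it read 24212, 30109 and 26552 in pho2, 37955, 34586 and 31941 in gi, and 37085, 34296 and 39550 in WT. The pho2 shoot arrays were all under the WT range (-0.46, SE 0.099), and gi overlapped WT (-0.09, SE 0.099). In root it read 109, 363 and 463 in pho2, 297, 881 and 425 in gi, and 152, 198 and 203 in WT. All gi root arrays exceeded WT, with a ratio of means of 2.9 (1.33, SE 0.483, and 0.90 without replicate 2 of gi). The pho2 root arrays lay on both sides of WT (0.51, SE 0.483). Without replicate 1 of pho2 this value was 1.10, and without replicate 3 it was 0.13.

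Counted over the 5 probe sets, the 3 mutant arrays did not overlap the 3 WT arrays for 5 in pho2 shoot, 3 in gi shoot, 2 in pho2 root and 3 in gi root. Over all tested probe sets the share without overlap was 43.5% in pho2 shoot, 34.6% in gi shoot, 35.1% in pho2 root and 21.7% in gi root. The genes were chosen on these contrasts, so nothing is read from their counts. Both mutants were set against the same 3 WT arrays of a tissue, and values of pho2 and gi therefore share those arrays.

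**Figure D2:**
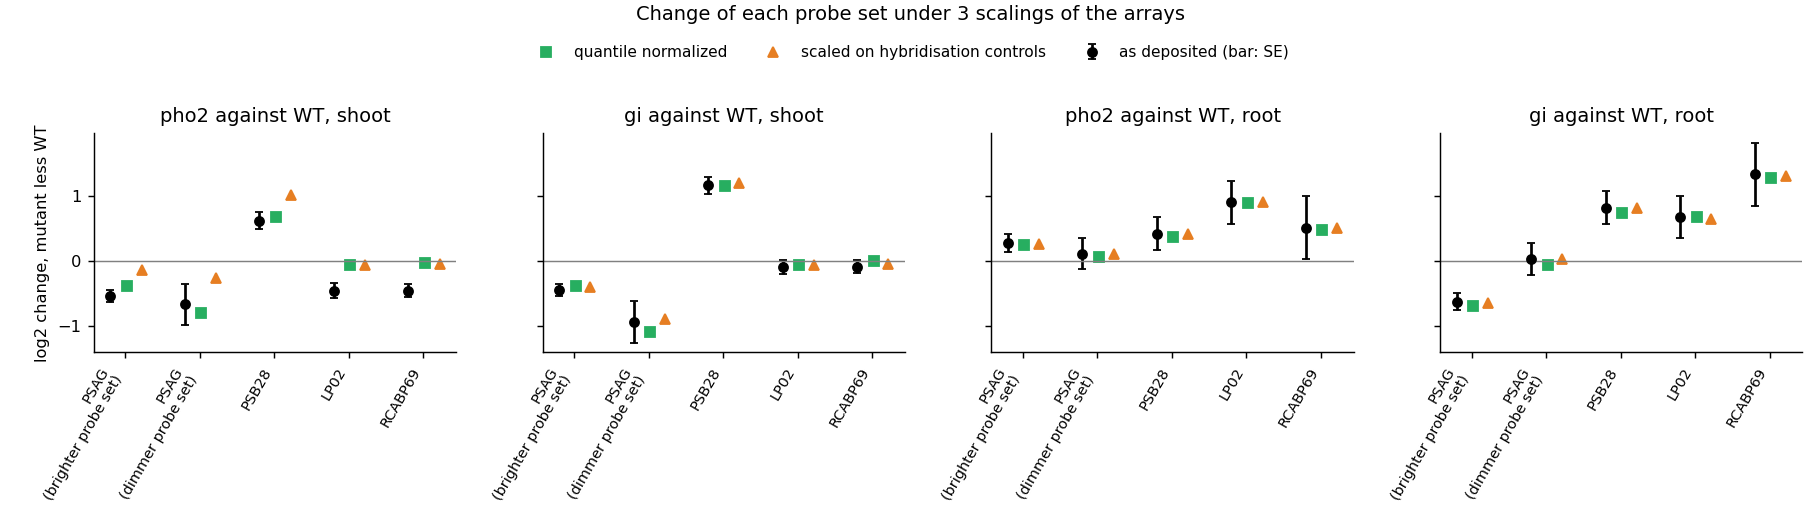
The log2 change of mutant less WT is shown for each probe set in 4 panels (pho2 and gi in shoot, then in root), with values as deposited (black, bar is the SE), after quantile normalization (green) and after scaling on hybridisation controls (orange). The 3 scalings lie close together except in pho2 shoot, where LP02 and RCABP69 are at -0.46 as deposited and between -0.07 and -0.03 after either rescaling. On the control scale the median of all tested probe sets is itself 0.40 in pho2 shoot.

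The lower LP02 and RCABP69 signals of pho2 shoot moved together with a feature of those arrays. The 27 hybridisation control probe sets (bioB, bioC, bioD and cre) detect foreign transcripts that are added to each sample just before hybridisation. Their median log2 change in pho2 shoot was -0.44, with a range of -0.62 to -0.35, and for 26 of the 27 all pho2 arrays lay below all WT arrays. In gi shoot the median was -0.14, in pho2 root -0.03 and in gi root 0.03. The brightest 1% of tested probe sets in shoot, 344 in number, had a median of -0.40 in pho2 shoot with 93.6% below 0, whereas the median of all tested probe sets was -0.01. LP02 ranked 23 and RCABP69 ranked 83 in brightness among the 34355. The highest signal on an array was 40140 to 51150 on pho2 shoot arrays, 52800 to 65120 on gi shoot arrays and 54920 to 62750 on WT shoot arrays.

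After quantile normalization the pho2 shoot values were -0.07 for LP02 and -0.03 for RCABP69, and after scaling on the hybridisation controls they were -0.06 and -0.05. PSAG, ranked 832 in brightness, was at -0.39 after quantile normalization and at -0.14 on the control scale. PSB28, ranked 1686, was at 0.67 after quantile normalization and at 1.02 on the control scale. On the control scale the median of all tested probe sets in pho2 shoot was 0.40, and after quantile normalization it was -0.06. Relative to the median, PSAG was lower and PSB28 higher on both scales. LP02 and RCABP69 also lay below the median on the control scale, and close to it after quantile normalization. The changes of PSAG and PSB28 in gi shoot hardly depended on the scaling (-0.45, -0.39 and -0.41 for PSAG, and 1.16, 1.15 and 1.19 for PSB28, as deposited, quantile normalized and on the control scale). Why the control and bright probe sets were dimmer on the pho2 shoot arrays was not tested.

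**Figure D3:**
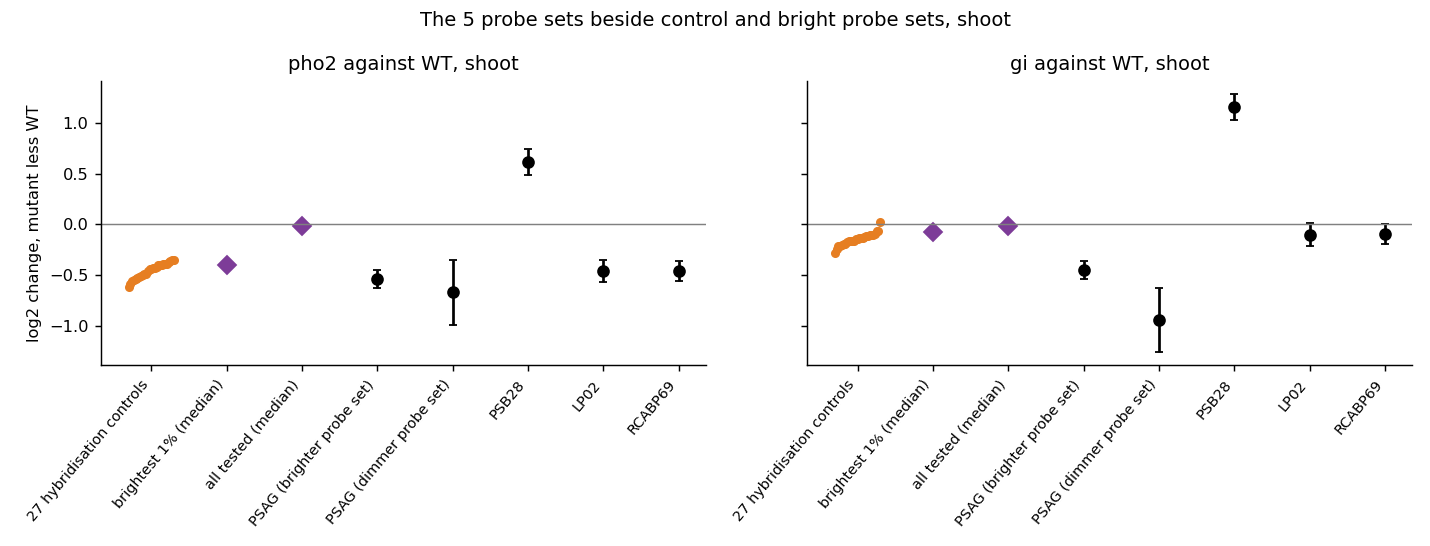
Log2 changes of mutant less WT in shoot (pho2 on the left, gi on the right) are plotted for the 27 hybridisation controls (orange, sorted), the median of the brightest 1% and of all tested probe sets (purple), and the 5 probe sets of PSAG, PSB28, LP02 and RCABP69 (black, bar is the SE). In pho2 shoot, LP02 and RCABP69 lie level with the controls, whereas PSB28 lies on the other side of 0.

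In root, the higher signals of LP02 and RCABP69 did not come evenly from the mutant arrays. Relative to the WT root mean, RCABP69 stood at -0.67, 0.93 and 1.27 on the pho2 arrays and at 0.66, 2.17 and 1.15 on the gi arrays (log2 differences for replicates 1, 2 and 3). LP02 stood at 0.36, 0.99 and 1.36 on the pho2 arrays and at -0.08, 1.34 and 0.75 on the gi arrays. PSB28 stood at 0.14, 0.37 and 0.75 on the pho2 arrays and at 0.26, 1.10 and 1.11 on the gi arrays. Replicate 1 was thus the lowest array of its group for these 3 genes in both mutants. By its brighter probe set PSAG stood at 0.13, 0.40 and 0.27 on the pho2 arrays, where replicate 1 was again the lowest, and at -0.56, -0.76 and -0.57 on the gi arrays, where it was not.

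The summed signal of green tissue markers was also lowest on replicate 1 in both mutant roots. Of 4 green mesophyll markers, 3 could be used: RBCS, the small subunit of Rubisco; RCA, Rubisco activase; and GLO1, the leaf glycolate oxidase. Their summed root signal was 221, 881 and 1361 on the pho2 arrays, 428, 876 and 979 on the gi arrays, and 190 to 265 on the WT arrays. RBCS alone was at 6.88 on replicate 1 of pho2, 160 and 163 on the other pho2 arrays, and 57.1 to 75.9 on the WT arrays. On the gi arrays RBCS read 146, 174 and 112, so replicate 3 was its lowest there. GLO1 enters the sum by 1 of its 2 probe sets, and the other was at 2134.1 to 2530.5 over the 9 root arrays. The 9 shoot markers summed to 583, 289 and 456 on the pho2 root arrays, 318, 617 and 300 on the gi root arrays, and 106 to 240 in WT root. Their order was another one, since replicate 1 was the highest in pho2 and replicate 3 the lowest in gi. Among them LOGL3, a cytokinin-activating enzyme gene, was at 214 to 500 in pho2 root, 143 to 444 in gi root and 19.3 to 68.1 in WT root, and the leaf identity genes YAB2 and YAB6 and the sugar transporter gene SWEET1B were at 11.1 or lower on every root array. The part of such markers in the root values of LP02, RCABP69 and PSB28 was not tested. In whole organs, a change in the number of green cells and a change in transcript per cell cannot be told apart.

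**Figure D4:**
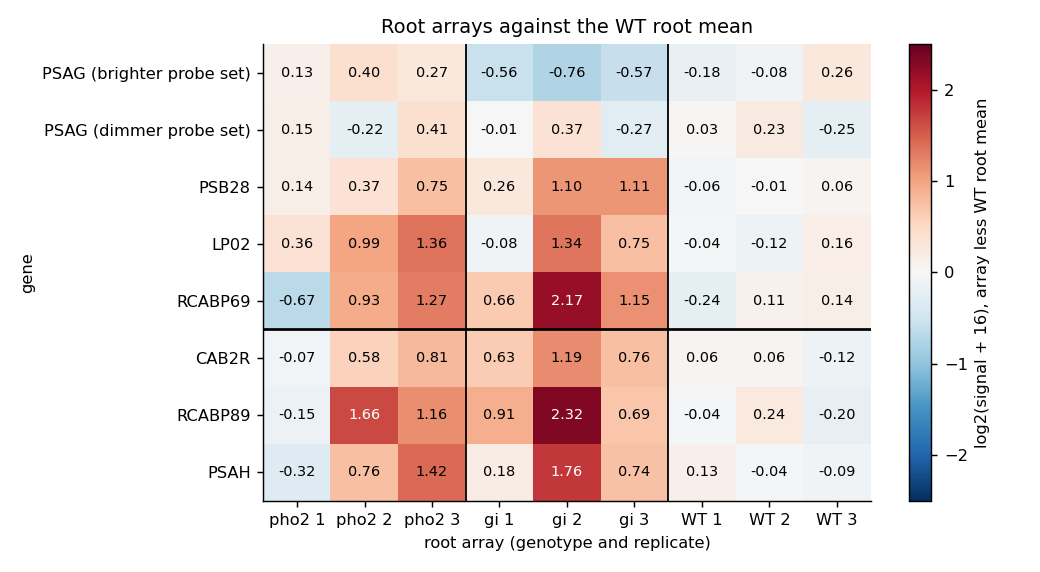
Each cell gives the log2 signal of 1 root array less the WT root mean, for PSAG, PSB28, LP02 and RCABP69 above the line and 3 further genes of the photosystems and antennae below it, with columns for replicates 1 to 3 of pho2, gi and WT. Red cells dominate in replicates 2 and 3 of pho2 and in all gi columns, but the brighter PSAG probe set is blue in gi.

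Of 5 further light reaction genes in the gene tables, 3 have probe sets. They are CAB2R and RCABP89, which encode chlorophyll a/b-binding antenna proteins, and PSAH, subunit H of photosystem I. CAB2R has 2 probe sets and is given by the brighter. In pho2 shoot all 3 were called lower, where 14.2% of tested probe sets were called lower and 28.6% in either direction. PSAH averaged 29570 ± 5140 in pho2 shoot and 43250 ± 4520 in WT shoot (-0.56, SE 0.143, limma adjusted p = 0.0112). CAB2R averaged 41900 ± 4500 in pho2 shoot and 55860 ± 5430 in WT shoot (-0.42, SE 0.114, limma adjusted p = 0.0163). RCABP89 gave -0.38 (SE 0.132, limma adjusted p = 0.0482). The hybridisation controls lay at a median of -0.44 on the same arrays. After quantile normalization limma called 0 of the 3 (1 at an unadjusted p under 0.05), with CAB2R at 0.04, RCABP89 at 0.03 and PSAH at -0.16. On the control scale it also called 0 (0 at an unadjusted p under 0.05), with CAB2R at -0.01, RCABP89 at 0.02 and PSAH at -0.15. Their median there was -0.01, against 0.40 over all tested probe sets, and as deposited it was -0.42, against -0.01. In a fit of all 18 arrays limma called 0 (1 at an unadjusted p under 0.05). The count was also 0 without replicate 3 of WT shoot, and 1 without replicate 1 of pho2 shoot or of WT shoot.

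In gi shoot 0 of the 3 were called by limma, with 0 at an unadjusted p under 0.05, where 17.5% of all probe sets were called. PSAH gave -0.17 (SE 0.143, limma adjusted p = 0.478) and CAB2R -0.11 (SE 0.114, limma adjusted p = 0.563). In pho2 root 0 of 3 were called (0 at an unadjusted p under 0.05, background 15.8%), with a median log2 change of 0.62 against 0.02 over all tested probe sets. RCABP89 was at 0.89 (SE 0.478, limma adjusted p = 0.246) and CAB2R at 0.44 (SE 0.203, limma adjusted p = 0.176). Without replicate 1 of pho2 root, CAB2R was called (0.69, limma adjusted p = 0.0213). In gi root 0 of 3 were called (2 at an unadjusted p under 0.05, background 2.28%), with a median of 0.89 against 0.03. CAB2R averaged 12140 ± 2550 in gi root and 6607 ± 454 in WT root (0.86, SE 0.203, limma adjusted p = 0.0612, and 0.0126 to 0.172 over its alternatives), and RCABP89 was at 1.31 (SE 0.478, limma adjusted p = 0.212).

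The tissue contrast of a mutant's effect was tested for these 3 genes in the 18-array fit. CAB2R was called in both mutants, with an effect in root less that in shoot of 0.86 in pho2 (SE 0.251, limma adjusted p = 0.0158) and 0.97 in gi (SE 0.251, limma adjusted p = 0.0179). Neither call held on the control scale (limma adjusted p = 0.247 and 0.0561). On that scale the median of all tested probe sets was -0.404 in pho2 and -0.001 in gi, against 0.007 and 0.048 as deposited. RCABP89 and PSAH were not called in this test.

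A wider list of 32 genes of chloroplast function and light response has probe sets, in 5 groups: carbon fixation, electron transport, chlorophyll synthesis and breakdown, photorespiration, and light regulators. RBCS, RCA and GLO1 of the green markers belong to it too. In pho2 shoot 31 were tested, of which 4 were called higher and 15 lower (median log2 change -0.34, against -0.01 over all). Over all probe sets 14.4% were called higher and 14.2% lower. On the control scale the counts were 10 higher and 2 lower (median 0.06, against 0.40 over all). There 9875 of all 34355 tested probe sets were called higher and 896 lower. After quantile normalization the list gave 7 higher and 7 lower (median -0.04, against -0.06 over all). The counts thus follow the scaling. The list's median lay below that of all probe sets as deposited and on the control scale, but not after quantile normalization. By the brightest probe set of each gene, all 3 tested carbon fixation genes were called lower as deposited, and 0 of them were called by limma on the control scale (0 at an unadjusted p under 0.05). A dimmer RBCS probe set went the other way in pho2 shoot, at 0.53 as deposited (limma adjusted p = 0.0555) and 0.93 on the control scale (0.00121). The remaining RBCS probe sets were called on neither scale. They were at -0.56 (limma adjusted p = 0.0578) and, for the dimmest, 0.22 (0.719) as deposited. Of 11 chlorophyll genes 2 were called higher and 4 lower, of 6 electron transport genes 1 higher and 3 lower, of 5 photorespiration genes 1 higher and 2 lower, and of 6 light regulators 0 higher and 3 lower.

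Some genes of this list in pho2 shoot moved further than the arrays' bright end. GLK1 and GLK2 are transcription factors that switch on photosystem and chlorophyll genes. GLK2 averaged 4684 ± 394 in pho2 shoot and 9272 ± 823 in WT shoot (-0.98, SE 0.092, limma adjusted p = 1.31e-05), and its other 3 probe sets were at -0.41 to -0.95. GLK1 averaged 9429 ± 1170 in pho2 shoot and 16150 ± 1110 in WT shoot (-0.78, SE 0.091, limma adjusted p = 6.36e-05). Both stayed called in all 19 alternatives, with log2 changes of -1.06 to -0.58 for GLK2 and -0.88 to -0.38 for GLK1. GLO4, a glycolate oxidase, fell by 0.75 (SE 0.098, limma adjusted p = 0.000148) but was not called on the control scale (limma adjusted p = 0.0972).

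SGR, the STAY-GREEN protein that starts chlorophyll breakdown, had the largest rise of the 31. It read 2956, 803 and 1631 in pho2 shoot, against 131, 221 and 155 in WT shoot (3.13, SE 0.371, limma adjusted p = 7.15e-05). GLO3, another glycolate oxidase gene, averaged 656.8 ± 290 in pho2 shoot and 129 ± 40.7 in WT shoot (2.18, SE 0.494, limma adjusted p = 0.00562). FNR, a ferredoxin-NADP reductase gene (1 of 2 genes listed under this name), averaged 2621 ± 83.3 in pho2 shoot and 1610 ± 155 in WT shoot (0.70, SE 0.103, limma adjusted p = 0.000316). In WT, SGR, GLO3 and this FNR gene were brighter in root than in shoot, averaging 1237, 4842 and 12955 in WT root. The 2 probe sets of the other FNR gene gave 0.36 (limma adjusted p = 0.13) for the brighter and 0.71 (0.0006) for the dimmer. The calls of SGR, GLO3 and the first FNR gene held in all 19 alternatives. The summed root markers were at 2402 to 3190 in pho2 shoot, 6760 to 8669 in gi shoot and 6888 to 10640 in WT shoot. NAS3 gave much of that difference, with 1003 to 1830 in pho2 shoot and 4268 to 8130 in WT shoot. SHR1 (47.3 to 102 in pho2 shoot and 25.6 to 29.5 in WT shoot) and SCR1 (154 to 212 in pho2 shoot and 84.6 to 102 in WT shoot) lay the other way.

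In gi shoot 7 of the 31 were called higher and 3 lower (median 0.05, against -0.01 over all), where 8.98% of all probe sets were called higher and 8.56% lower. SGR rose here too, reading 539, 842 and 915 in gi shoot, against 131, 221 and 155 in WT shoot (2.07, SE 0.371, limma adjusted p = 0.00236). CHLG, chlorophyll synthase, averaged 2492 ± 151 in gi shoot and 1502 ± 192 in WT shoot (0.73, SE 0.104, limma adjusted p = 0.000523). LFNR1, a leaf-type ferredoxin-NADP reductase, rose by 0.53 (SE 0.106, limma adjusted p = 0.00459), and was not called in the fit of all 18 arrays (limma adjusted p = 0.174). GLO4 fell by 0.62 (SE 0.098, limma adjusted p = 0.00108). GLK1 fell by 0.38 (SE 0.091, limma adjusted p = 0.0125, lost in 3 of 19 alternatives) and GLK2 by 0.30 (SE 0.092, limma adjusted p = 0.0439, lost in 10 of 19). By group, 4 of 11 chlorophyll genes were called higher and 0 lower, and 0 of 3 carbon fixation genes were called by limma at their brightest probe sets (0 at an unadjusted p under 0.05). The dimmer RBCS probe set that rose in pho2 shoot on the control scale was called higher in gi shoot by limma (0.92, adjusted p = 0.00542). The remaining RBCS probe sets were not called, at -0.09 (limma adjusted p = 0.826) and, for the dimmest, 0.54 (0.356).

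In pho2 root 3 of 29 were called higher and 1 lower (median 0.08, against 0.02 over all), where 7.96% of all probe sets were called higher and 7.87% lower. CAO, chlorophyllide a oxygenase, which makes chlorophyll b, averaged 270.3 ± 52.3 in pho2 root and 127.7 ± 18.9 in WT root (0.99, SE 0.247, limma adjusted p = 0.024). NYC1, a chlorophyll b reductase, rose by 0.69 (SE 0.18, limma adjusted p = 0.0273). By its probe set that is brighter over all arrays, GLO1 rose by 2.19 (SE 0.617, limma adjusted p = 0.0377), reading 119, 328 and 422 in pho2 root, against 13.2, 69.5 and 68.9 in WT root. That rise rests on 1 of 2 GLO1 probe sets, since the other gave 0.08 (SE 0.078, limma adjusted p = 0.574). The calls of CAO, NYC1 and GLO1 were lost in 4, 7 and 7 of 19 alternatives, leave-one-out fits among them. FNR fell by 0.60 (SE 0.069, limma adjusted p = 0.000786), with 8537 ± 535 in pho2 root and 12950 ± 299 in WT root, and stayed called in all 19. The count of calls was 8 without replicate 1 of pho2, and 1 without replicate 3 of pho2 or without replicate 1 or 2 of WT.

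In gi root 0 of 29 were called higher and 1 lower by limma (median 0.35, against 0.03 over all), where 1.17% of all probe sets were called higher and 1.11% lower. The gene called was FNR (-0.34, SE 0.069, limma adjusted p = 0.0369), with 10270 ± 891 in gi root and 12950 ± 299 in WT root, and the call was lost in 12 of 19 alternatives. GLO1 had a log2 change of 2.24 in gi root (SE 0.617, limma adjusted p = 0.106), with 123, 239 and 614 on the gi arrays, whereas its other probe set gave -0.06 (SE 0.078, limma adjusted p = 0.75).

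**Figure D5:**
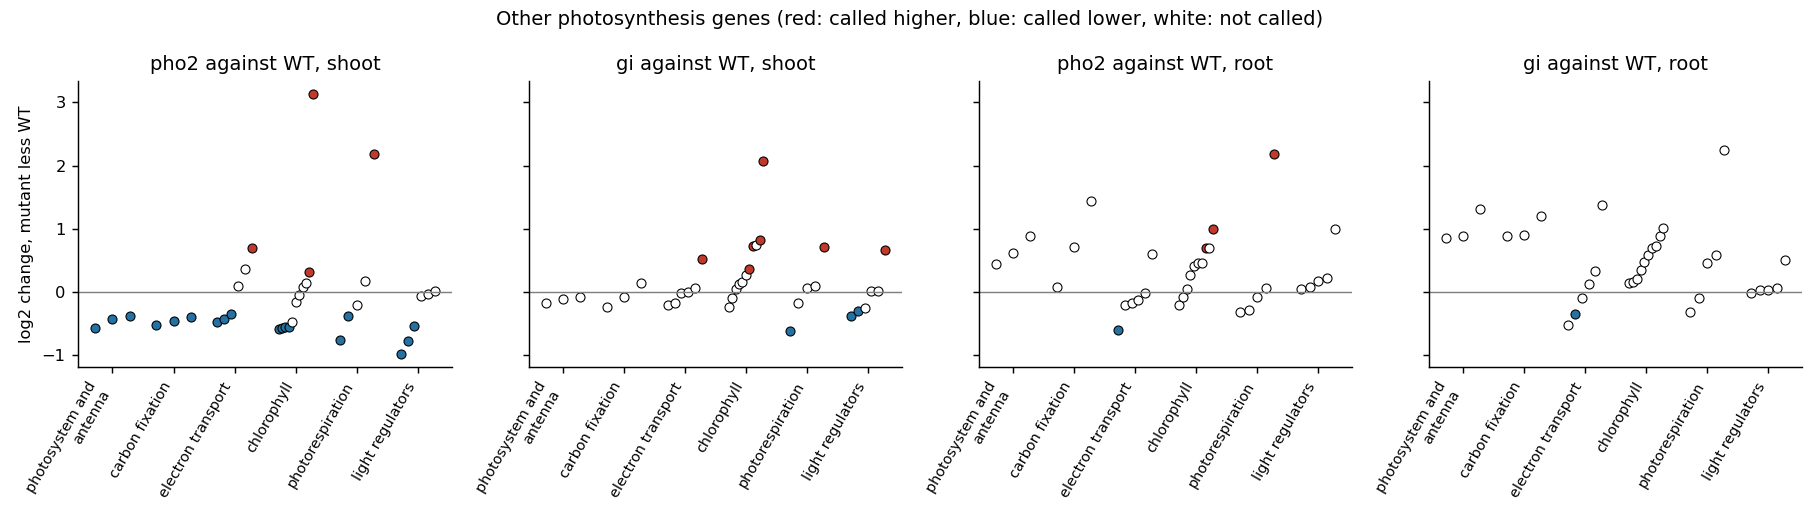
Each point is 1 further photosynthesis gene at its brightest probe set, placed by its group (horizontal) and its log2 change of mutant less WT (vertical), and filled red or blue where limma called it higher or lower. In pho2 shoot most points lie just below 0, with SGR at 3.13 and GLO3 at 2.18, and in both roots most photosystem and antenna points lie above 0 without a call.

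Genes with the most similar profile were sought among probe sets with 1 named gene, by Pearson's r of log2(signal + 16) over the 9 arrays of a tissue. The 9 arrays share genotype groups, tissue and scaling, so r is a description of these arrays. In root, 2798 probe sets were compared. Closest to RCABP69 were PETE, which encodes plastocyanin (0.981), ADI1 (0.963) and PORB, a protochlorophyllide reductase gene (0.961). Closest to LP02 were OsPEX11-1, a peroxisome protein gene (0.974), OsrbcS, a Rubisco small subunit (0.965), and CAO (0.94). Closest to PSB28 were GLO5 (0.938), CHLP, geranylgeranyl reductase of chlorophyll synthesis (0.925), and BIPP2C1 (0.922). PSAG kept other company in root by its brighter probe set, with GAP1 (0.979), CHMP1 (0.927) and OsCASPL1B1 (0.923).

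In shoot, 2708 probe sets were compared. OsrcaA1, the platform's name for the Rubisco activase gene RCA, was closest to LP02 (0.997) and to RCABP69 (0.991), and all of these are bright probe sets. LP02 was next to BIPP2C1 (0.992), and RCABP69 to OsPEX11-1 (0.99). PSB28 was closest to CIPK18, a protein kinase gene (0.992), OsCASPL2C1 (0.989) and CPX (0.983). PSAG was closest to OsPP2C71 (0.972), the metal transporter gene NRAMP4 (0.97) and HK5 (0.97). The dimmer PSAG probe set had other neighbours, with r of 0.776 to 0.813 in root and 0.895 to 0.913 in shoot, and it shared none of its 3 with the brighter one in either tissue.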

How the data were processed

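Root and shoot RNA of 3 genotypes was measured on 18 one-colour Affymetrix arrays, with 3 per group. Per the submitters' processing notes the authors used MAS5, whose version is not given in the sources used here. Its output, a linear intensity per probe set, was taken as deposited. The 123 Affymetrix control probe sets were left out of tests, and log2(signal + 16) was fitted for the 9 arrays of a tissue together (limma 3.58.1 under R 4.3.3, lmFit, then eBayes with trend). WT shoot against WT root, and effects in root less those in shoot, came from a fit of all 18 arrays. Probe sets with a mean below the 40th percentile were left out, which left 34355 in each fit, and all 5 probe sets of the 4 genes passed in both tissues. Tests were two-sided, with Benjamini-Hochberg adjustment over all tested probe sets. The fit was checked on simulated data.

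Probe sets were named through the platform annotation and a RefSeq gene table. Of them, 22436 had 1 gene and 95 had several and were not named. There were 0 pairs of identical columns. A gene of a list with several probe sets is given by the brightest. Named are the 4 genes on every array, from each list and comparison up to 3 called genes in each direction with the smallest p (or the 2 with the smallest p where none was called), and the 3 most similar genes per probe set. GLO1 in gi root and the single array values of SGR and GLO1 were added after their values were seen. The genes, lists and markers were chosen with earlier results of these data known. PSBW and CAB1R of the light reaction list are not analysed here.

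Alternatives were pseudocounts of 1 and 64, no filter, quantile normalization, median centring, a replicate block, array weights, fits of other sets of arrays, each array left out, and, chosen after seeing the data, arrays scaled on the 27 hybridisation controls.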

Additional observations from a re-analysis of the deposited data

Results flagged for a closer look

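LP02 lay on opposite sides of WT in the tissues of pho2, with all 3 root arrays above WT (0.90) and all 3 shoot arrays below it (-0.46). The difference between these changes was not tested, since the gene was chosen on them, and the shoot value was -0.07 after quantile normalization.

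For the genes around them, the effect of a mutant in root less its effect in shoot was tested in the 18-array fit. It was called for 1 of 3 further light reaction genes and 12 of 31 wider photosynthesis genes in pho2 (9 higher, 3 lower), where 29% of all tested probe sets were called. In gi it was called for 1 of 3 and 7 of 31 (3 higher, 4 lower), where 12.2% were called. CAB2R gave 0.86 in pho2 (limma adjusted p = 0.0158) and 0.97 in gi (0.0179). FNR gave -1.30 in pho2 (limma adjusted p = 1.63e-06) and -0.40 in gi (0.0476). SGR gave -3.08 in pho2 (limma adjusted p = 8.54e-05) and -1.92 in gi (0.0114). GLO1 gave 2.56 in pho2 (limma adjusted p = 0.00862) and 2.42 in gi (0.0282) by 1 of its 2 probe sets, and 0.01 in pho2 (0.978) and 0.13 in gi (0.465) by the other. GLO4 gave 0.47 in pho2 (0.0267) and 0.53 in gi (0.0291). In pho2, CAO gave 1.55 (limma adjusted p = 0.000362), GLK1 1.79 (0.00258), GLK2 1.45 (0.0019) and GLO3 -2.49 (0.00371). CHLG gave -0.57 in gi (limma adjusted p = 0.0244). GLK2 lay between 4.2 and 30.8 signal units on every root array by its brightest probe set, so its value rests on the shoot. On the control scale the median of all tested probe sets was -0.404 in pho2 (980 called higher and 8003 lower) and -0.001 in gi. That scale thus lowers positive pho2 values and makes negative ones larger. Under it the pho2 values of FNR, SGR, CAO, GLO1, GLO3, GLK1 and GLK2 and the gi value of SGR stayed called. CAB2R and GLO4 in both mutants, and FNR, CHLG and GLO1 in gi, were not called on that scale (limma adjusted p = 0.0548 for GLO1 in gi to 0.887 for GLO4 in pho2).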

How the results depend on the processing

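All 5 probe sets stayed called higher in WT shoot than in WT root in 26 of 27 alternatives, and 4 on the control scale. For the 3 further light reaction genes, the count called in pho2 shoot (3) was 0 after quantile normalization, on the control scale and in the 18-array fit, and 0 to 3 with an array left out. CAB2R turned to 0.04 and RCABP89 to 0.03 after quantile normalization, and RCABP89 to 0.02 on the control scale. In gi root the count (0) was 1 with array weights, in a fit of gi and WT alone and in the 18-array fit, and 0 to 1 with an array left out, as in pho2 root. In gi shoot it was 0 throughout. For the wider list, pho2 shoot (19 called) gave 12 on the control scale, 11 in the 18-array fit and 15 to 22 with an array left out, and pho2 root (4) gave 1 to 8. In gi shoot (10) the count was 6 in the 18-array fit and 5 to 12 with an array left out (5 without replicate 1 or 3 of WT shoot). In gi root (1) it was 0 without the filter, after quantile normalization and on the control scale, 2 in a fit of gi and WT alone and in the 18-array fit, and 0 to 4 with an array left out. The causes were not tested. Same-numbered samples of different genotypes in a tissue did not deviate together (correlations of -0.102 to 0.12). Root and shoot arrays of the same genotype and number were not compared, and the 18-array fit takes them as independent. Whether the numbers pair samples is thus not settled. A replicate block gave 2 calls in gi root of the wider list and moved no other of these counts by over 1.5 times. After median centring the median of all probe sets was -0.08 in pho2 shoot and -0.12 in gi shoot, and this centring turned none of these directions in the 4 genes other than that of the dimmer PSAG probe set in gi root (-0.07). With 3 arrays a group, the number of arrays limits what can be called, and the root signals of PSB28 and of the dimmer PSAG probe set lie low on the arrays' scale.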
